A study of Mus musculus with 3 samples.

Results

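Zinc finger protein (Zfp) genes of the mouse were followed through osteoclast differentiation by their CG methylation. Members were the listed regions that overlapped, by 1 bp or more, the RefSeq span of an autosomal protein-coding gene whose symbol is Zfp followed by digits. There were 388 such genes among 20665 autosomal protein-coding genes, and 3152 distinct regions in them among 432641 in the deposited tables. Of the 388 genes, 210 lay in 31 clusters, defined as runs of 3 or more Zfp genes with gaps of at most 300 kb. A further 40 formed 20 pairs and 138 stood single. Single means that no other gene named Zfp was near, since zinc finger genes under other names were not counted. Chromosome 7 held 93 of the genes, chromosome 17 held 46 and chromosome 13 held 37.

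Whole-genome bisulfite sequencing reads methylated cytosines as cytosine and unmethylated ones as thymine. Marrow was flushed from the long bones of C57BL/6 mice aged 11 weeks, and the cells still floating after 24 h of culture were used. Mature osteoclasts (mOC) came from bone marrow macrophages given RANKL, the cytokine that induces osteoclasts, at 100 ng/mL for 72 h or longer, beside 30 ng/mL of M-CSF, a macrophage growth factor. Preosteoclasts (pOC) had the same cytokines for 24 h. Bone marrow macrophages (BMM) had only M-CSF, 50 ng/mL over 72 h, and no genetic change is given for any group. With 1 library per stage there are no replicates against which to weigh a difference, and Fisher's exact tests below compare the reads of a pair of libraries, not stages. The cells were sequenced in bulk, so a change in every cell and a change in the mixture of cells cannot be told apart.

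Most proteins of this family bind DNA through arrays of C2H2 zinc fingers, in which a zinc ion holds each finger in shape and each finger reads a few bases. Many of the clustered genes arose by local duplication and also encode a KRAB domain, which recruits the corepressor Trim28 and leads to histone and DNA methylation at the bound site, often in a retroelement. Other members are unlike these: the Zfp36 group has CCCH fingers and binds messenger RNA, and further single genes encode general transcription factors.

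The sequences below stand at annotated start sites in Zfp genes that overlapped a listed region, and are shown because few Zfp start sites did. A gene can have several such sites. Each sequence is the stretch before the start, within the RefSeq window of that site (GRCm38.p6, 250 bp before to 50 bp after), that lay in a listed region, written 5′ to 3′ on the gene's strand with every CG in capitals.
Zfp229 (chr17:21733474-21733600, plus strand): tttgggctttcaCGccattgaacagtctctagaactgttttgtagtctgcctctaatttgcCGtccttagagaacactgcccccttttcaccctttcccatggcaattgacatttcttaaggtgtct
Zfp385b (chr2:77519802-77519916, minus strand): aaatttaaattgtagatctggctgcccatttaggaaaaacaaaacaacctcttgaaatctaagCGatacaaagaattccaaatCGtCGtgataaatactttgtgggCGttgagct
Zfp708 (chr13:67081604-67081795, minus strand): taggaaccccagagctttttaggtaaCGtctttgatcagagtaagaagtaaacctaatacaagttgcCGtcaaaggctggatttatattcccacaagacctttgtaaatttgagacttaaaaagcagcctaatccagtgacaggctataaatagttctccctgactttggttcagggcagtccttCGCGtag
Zfp33b (chr5:104571601-104571671, plus strand): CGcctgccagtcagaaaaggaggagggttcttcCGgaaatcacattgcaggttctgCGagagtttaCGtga
Zfp648 (chr1:154200937-154201002, plus strand): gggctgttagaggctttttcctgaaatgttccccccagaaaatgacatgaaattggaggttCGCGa
The only motif searched was CG, which reads the same on both strands. It was present in 393 of 394 Zfp windows (99.7%), against 95.6% of all windows of the table. Of the 5 sites only that of Zfp648 is the 5′ end of the gene span. The others lie inside the gene, 1097 bp from the 5′ end in Zfp33b, 2769 bp in Zfp229, 16431 bp in Zfp708 and 298040 bp in Zfp385b.

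Start sites in Zfp genes rarely carried a listed region, and those that did were poor in CG, as were those of other genes. Of 325 Zfp genes with a window, 4 (1.23%) overlapped a region in pOC against BMM, 8 (2.46%) in mOC against pOC and 7 (2.15%) in mOC against BMM. For other genes these shares were 2.37%, 2.01% and 0.638%. The 12 Zfp genes concerned had 1 to 9 CG per window, where the median of all Zfp windows was 14 and 34.8% of them had 9 or fewer. In the same order of comparisons, windows with a region had a median of 5.5, 6 and 7 CG in Zfp genes. In other genes it was 5, 5 and 4, and the median of all their windows was also 14. The site lay within 100 bp of the gene's 5′ end in 7 of the 12, and in 240 of all 394 Zfp windows. Of the 12, 8 were clustered, as were 185 of all 325 Zfp genes with a window. The chromosome 13 cluster that runs from Zfp712 to Zfp273, which has 23 of the 388 Zfp genes, held 4 of the 8.

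At the internal start site of Zfp229 the level was 64.3% in mOC (95% interval 44.1 to 81.4, 28 reads), 17.6% in pOC (8.40 to 30.9, 51 reads) and 30.0% in BMM (14.7 to 49.4, 30 reads). The level in mOC stood above both earlier stages, with an adjusted p of 0.000697 against pOC and 0.0315 against BMM (Fisher's exact test, Benjamini-Hochberg over all regions of the table). The mOC and BMM intervals of this site overlap. The internal site of Zfp385b had 54.2% in BMM (42.0 to 66.0, 72 reads), 18.4% in pOC (7.74 to 34.3, 38 reads) and 55.2% in mOC (41.5 to 68.3, 58 reads), so the site was low in the middle stage alone of the 3. At the 5′ end of Zfp648 the level was 88.9% in mOC (65.3 to 98.6, 18 reads), 37.9% in pOC (20.7 to 57.7, 29 reads) and 59.4% in BMM (40.6 to 76.3, 32 reads), and its mOC and BMM intervals overlap. The internal site of Zfp33b went the other way, with 13.5% in mOC (6.68 to 23.5, 74 reads) and 40.5% in BMM (29.3 to 52.6, 74 reads). Zfp708, a KRAB protein that represses a mouse retroelement, had 51.5% at its internal site in mOC (33.5 to 69.2, 33 reads) and 27.3% in pOC (13.3 to 45.5, 33 reads), and did not pass the test (adjusted p = 0.0889 by the same exact test). Zfp988, not shown above, had 61.9% at its 5′ end in mOC (52.3 to 70.9, 113 reads). It had 32.1% in pOC (26.0 to 38.75, 218 reads) and 29.6% in BMM (21.8 to 38.4, 125 reads). By the same exact test its adjusted p was 1.85e-05 for mOC against pOC and 9.87e-05 for mOC against BMM. Zfp988 lies in the chromosome 4 cluster, whose deepest region is described below, and its own 218 reads in pOC fell on 7 cytosines.

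In pOC against BMM, methylation in Zfp genes was lower at nearly all listed regions. Of 1934 regions 1859 were lower in pOC and 75 higher, so 3.88% were higher (exact 95% interval 3.06 to 4.84), close to all listed autosomal regions in genes, of which 4.68% were higher and 95.3% lower. The read-weighted level over the Zfp regions was 52.6% in pOC and 80.5% in BMM, and over regions of other genes 51.1% in pOC and 79.0% in BMM. At least 1 region was found in 342 of the 388 genes (88.1%), against 69.6% of all genes. Of these, 286 held only regions lower in pOC, 3 only higher ones and 53 both.

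Zfp genes of 5 to 20 kb held a listed region in pOC against BMM more often than other genes of like length, with exact intervals that did not overlap. Among genes of 5 to 10 kb the share with a region was 79.5% of Zfp genes (63.5 to 90.7) and 53.2% of other genes (51.3 to 55.1). Among genes of 10 to 20 kb it was 87.8% (81.6 to 92.5) and 78.8% (77.5 to 80.2), at 20 to 50 kb 96.2% (91.3 to 98.7) and 92.5% (91.7 to 93.2), and above 50 kb 100% and 98.6%. The shares at 5 to 10 kb in mOC against pOC were 71.8% of Zfp genes (55.1 to 85.0) and 51.8% of other genes (49.95 to 53.7), and at 10 to 20 kb 84.6% and 79.6%, with overlapping intervals. At 5 to 10 kb in mOC against BMM they were 23.1% (11.1 to 39.3) and 19.0% (17.6 to 20.6), which also overlap. Over Zfp genes of every length, listed regions of pOC against BMM had medians of 6.17 reads per cytosine in pOC and 6.25 in BMM. For other genes these were 6.13 in pOC and 6.25 in BMM. Depth outside listed regions was not analysed here, and its part in these shares was not tested.

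In mOC against pOC the direction was the opposite. Of 1606 Zfp regions 1491 were higher in mOC and 115 lower, a share of 92.8% higher (91.5 to 94.1). Of all listed regions in genes 91.6% were higher and 8.36% lower. The read-weighted level was 76.1% in mOC and 50.4% in pOC. Regions lay in 329 genes (84.8%, against 69.4% of all genes), of which 249 held only higher ones, 3 only lower ones and 77 both. This comparison shares the pOC library with the one before, so the 2 directions are not independent of each other.

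Fewer Zfp regions were listed in mOC against BMM, and their directions were mixed. Of 441 regions 155 were higher in mOC and 286 lower, so 35.1% were higher (30.7 to 39.8), beside 36.7% higher and 63.3% lower among all listed regions in genes. The level was 59.4% in mOC and 67.2% in BMM. Regions lay in 198 genes (51.0%, against 46.5% of all genes). Of these, 103 held only regions lower in mOC, 48 only higher ones and 47 both.

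**Figure D1:**
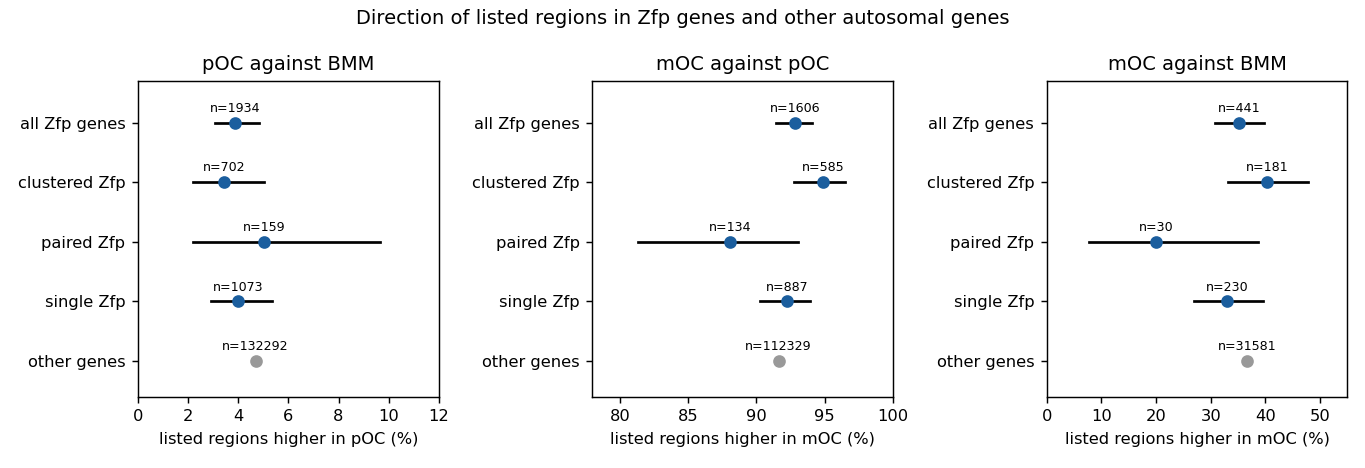
Share of listed regions that were higher in the later stage (x axis, %), for all, clustered, paired and single Zfp genes and for other autosomal genes, with exact 95% intervals and the number of regions. In pOC against BMM every class lies between 3.42% and 5.03%, and in mOC against BMM clustered genes stand at 40.3%, single genes at 33.0% and paired genes at 20%. The x axes have different ranges and that of mOC against pOC does not start at 0.

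Clustered and single Zfp genes took the same direction, and the gaps between them lay within their counting error or at its edge. Of 702 pOC against BMM regions of clustered genes 24 (3.42%), and of 1073 of single genes 43 (4.01%), were higher in pOC, a difference of -0.59 points (Newcombe 95% interval -2.33 to 1.32). In mOC against pOC, 555 of 585 (94.9%) and 818 of 887 (92.2%) were higher in mOC, a difference of 2.65 points (0.0206 to 5.12). That interval barely leaves out 0 and covers counting error only, while regions of 1 gene are not independent. In mOC against BMM, 73 of 181 (40.3%) and 76 of 230 (33.0%) were higher in mOC, a difference of 7.29 points (-2.05 to 16.6). Without the chromosome 4 cluster described next, an alternative chosen after seeing the data, that difference was 3.03 points.

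Single clusters went different ways in mOC against BMM, though on few regions each, and their differences were not tested. The chromosome 4 cluster from Zfp987 to Zfp933, of 14 genes, had 16 regions higher in mOC and 7 lower, with a read-weighted level of 50.5% in mOC and 34.4% in BMM. The chromosome 13 cluster from Zfp808 to Zfp934 had 6 higher and 1 lower, with 66.4% in mOC and 47.6% in BMM. On chromosome 7, the cluster from Zfp607b to Zfp850 had 2 higher and 12 lower, with 61.0% in mOC and 76.8% in BMM. The neighbouring cluster from Zfp84 to Zfp146 had 2 higher and 9 lower, with 62.3% in mOC and 82.2% in BMM. The biggest cluster, of 23 genes from Zfp712 to Zfp273 on chromosome 13, was even, with 9 higher and 9 lower and 63.9% in both stages.

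Of these clusters, those mostly higher in mOC had the lower levels in BMM. Direction and level come from the same reads here, and a region above 80% in BMM cannot be listed as 20 points higher, so no relation was drawn from this. The same clusters did not part in direction in pOC against BMM. The cluster on chromosome 4 had 4 regions higher in pOC and 58 lower, and the one from Zfp84 to Zfp146 had 1 higher and 63 lower. The chromosome 4 cluster held few regions for its length in that comparison, 5.65 per 100 kb where all Zfp genes held 14.8. Of the other clusters, Zfp433 to Zfp938 on chromosome 10 held fewer, 3.26 per 100 kb, and Zfp120 to Zfp345 on chromosome 2 held 6.14. The deepest region of the chromosome 4 cluster had 31.3 reads per cytosine in the deeper of its 2 libraries. By the same measure the cluster from Zfp677 to Zfp946 reached 23.5 and that from Zfp607b to Zfp850 reached 19.5. The median over Zfp regions was 6.17 in pOC. Near-identical gene copies can draw reads from each other or lose reads that fit several places, and the part of this in the cluster's values was not tested.

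**Figure D2:**
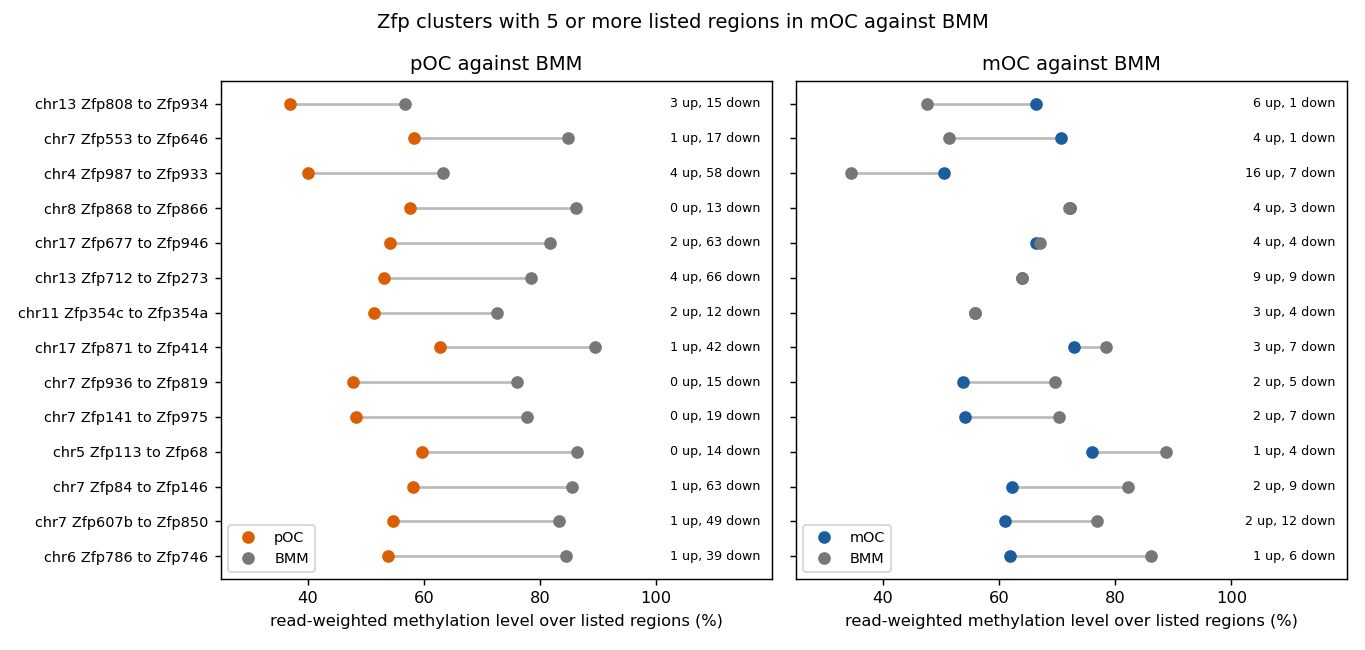
Read-weighted methylation level (x axis, %) over the listed regions of each Zfp cluster that had 5 or more regions in mOC against BMM, ordered by the share higher in mOC, with pOC or mOC and BMM as points and counts of regions higher (up) and lower (down) in the later stage. All clusters lie lower in pOC than in BMM, while in mOC against BMM the chromosome 4 cluster is at 50.5% in mOC and 34.4% in BMM and Zfp84 to Zfp146 at 62.3% in mOC and 82.2% in BMM.

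The largest differences with at least 30 reads in both libraries were in genes of all classes. Zfp568, a KRAB protein that keeps a placental transcript of Igf2 silent in the mouse embryo, was at 28.9% in pOC (15.4 to 45.9, 38 reads) and 100% in BMM (88.8 to 100, 31 reads) on chromosome 7 (29998601 to 29998800), with an adjusted p of 2.27e-08 (Fisher's exact test). Zfp106, an RNA-binding protein needed for motor neurons in mice, was at 28.9% in pOC (15.4 to 45.9, 38 reads) and 93.6% in BMM (82.5 to 98.7, 47 reads). Zfp53 was almost unmethylated in pOC, at 1.75% (0.0444 to 9.39, 57 reads), and stood at 61.4% in BMM (51.2 to 70.9, 101 reads) over 12 cytosines on chromosome 17 (21529801 to 21530000). These regions lost most of their methylated reads between the BMM and pOC libraries. Zfp120, Zfp597 and Zfp292 differed by -62.2, -55.7 and -53.3 points.

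Gains in pOC over BMM were fewer, and the largest were smaller than the largest losses. Over all Zfp regions the median difference was 28.0 points among higher regions and -29.2 points among lower ones. Zfp2 had 78.8% in pOC (65.3 to 88.9, 52 reads) and 38.5% in BMM (25.3 to 53.0, 52 reads), a difference of 40.4 points (21.7 to 55.3). Zfp708 had 53.8% in pOC (44.9 to 62.6, 130 reads) and 18.9% in BMM (10.7 to 29.7, 74 reads) in a region inside the gene (chromosome 13, 67080804 to 67081003). Zfp706, Zfp704, Zfp286 and Zfp536 followed with 35.8, 34.2, 33.9 and 33.0 points. All 12 of these named regions passed the exact test at an adjusted p of 0.05, as did 91.3% of all regions of that table.

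In mOC against pOC, Zfp664 stood at 98.3% in mOC (91.1 to 100, 60 reads) and 43.2% in pOC (28.3 to 59.0, 44 reads). Zfp503 had 96.6% in mOC (88.3 to 99.6, 59 reads) and 41.5% in pOC (26.3 to 57.9, 41 reads). Zfp280b, Zfp667, Zfp61 and Zfp568 were higher by 56.2, 55.7, 55 and 52.8 points. The widest losses were smaller than these gains. Zfp800 had 14.3% in mOC (4.81 to 30.3, 35 reads) and 53.1% in pOC (34.7 to 70.9, 32 reads), and Zfp248 had 54.9% in mOC (43.5 to 65.9, 82 reads) and 90.5% in pOC (77.4 to 97.3, 42 reads). Zfp536, Zfp180, Zfp618 and Zfp708 differed by -35.4, -31.2, -30.2 and -30.0 points.

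In mOC against BMM, Zfp326 had 70.6% in mOC (52.5 to 84.9, 34 reads) and 23.5% in BMM (10.7 to 41.2, 34 reads). The gains of Zfp975, Zfp438, Zfp808, Zfp704 and Zfp442 were 38.6, 38.2, 36.7, 33.8 and 33.7 points. Zfp148, a factor that binds GC-rich promoters, had 52.5% in mOC (36.1 to 68.5, 40 reads) and 93.9% in BMM (79.8 to 99.3, 33 reads). Zfp706, Zfp521, Zfp568, Zfp536 and Zfp618 differed by -40.4, -40, -40, -38.2 and -37.9 points. Gains and losses were of like size in this comparison.

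Followed over the 3 stages, Zfp regions took several courses. In Zfp64, which in humans drives transcription of the leukaemia gene MLL, a region on chromosome 2 (168951202 to 168951401) was at 90.9% in BMM (75.7 to 98.1, 33 reads), 17.6% in pOC (3.80 to 43.4, 17 reads) and 100% in mOC (87.7 to 100, 28 reads). The level dipped in pOC and was back in mOC. A partial return was seen in Zfp568, in the region given above, with 100% in BMM, 28.9% in pOC and 60.0% in mOC (42.1 to 76.1, 35 reads). Zfp467, which favours fat over bone formation in mouse marrow stroma, had 86.7% in BMM (73.2 to 94.9, 45 reads), 29.6% in pOC (13.8 to 50.2, 27 reads) and 65.5% in mOC (45.7 to 82.1, 29 reads).

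Other Zfp regions were not back in mOC, in genes whose listed regions were otherwise mostly higher in mOC than in pOC (10 of 10 in Zfp804a, 15 of 18 in Zfp521 and 3 of 4 in Zfp868). One region of Zfp804a, a long gene of neurons, had 75% in BMM (50.9 to 91.3, 20 reads), 28.6% in pOC (11.3 to 52.2, 21 reads) and 27.8% in mOC (9.69 to 53.5, 18 reads). In a region of Zfp521, an antagonist of the osteoblast factor Runx2, the level was 77.3% in BMM (62.2 to 88.5, 44 reads), 31.7% in pOC (18.1 to 48.1, 41 reads) and 28.6% in mOC (11.3 to 52.2, 21 reads). A region of Zfp868 was lower at each stage, with 91.3% in BMM (72.0 to 98.9, 23 reads), 65.4% in pOC (44.3 to 82.8, 26 reads) and 40% in mOC (19.1 to 63.9, 20 reads).

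Other named Zfp regions ended above their level in BMM or were highest in pOC. Zfp687, whose human counterpart is mutated in a severe form of Paget disease of bone, ended above its start in a region of 14 cytosines on chromosome 3 (95000001 to 95000200). It had 73.6% in BMM (63.3 to 82.3, 91 reads), 52.5% in pOC (41.0 to 63.8, 80 reads) and 96.5% in mOC (87.9 to 99.6, 57 reads). The Zfp708 region named above was high in pOC alone, with 18.9% in BMM, 53.8% in pOC and 23.8% in mOC (12.1 to 39.5, 42 reads). A region of Zfp704 was higher at both later stages, with 42.1% in BMM (26.3 to 59.2, 38 reads), 76.3% in pOC (65.2 to 85.3, 76 reads) and 75.9% in mOC (62.8 to 86.1, 58 reads).

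Zfp536, a repressor of neuronal differentiation, held courses of opposite kinds within its span. One region (chromosome 7, 37565001 to 37565200) had 7.58% in BMM (2.51 to 16.8, 66 reads), 40.6% in pOC (23.7 to 59.4, 32 reads) and 5.26% in mOC (0.644 to 17.7, 38 reads). Another, at 37643001 to 37643200, had 18.8% in BMM (4.05 to 45.6, 16 reads), 15.0% in pOC (3.21 to 37.9, 20 reads) and 76.5% in mOC (50.1 to 93.2, 17 reads). The first was high in the middle stage and the other only in the last.

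A limit of 20 or more cytosines, not scaled to width, picks out both CG-dense and wide regions. Regions that reach it have high read counts because a read is counted at each cytosine that it covers. There were 28 in Zfp genes in pOC against BMM, 1.45% of their regions beside 1.04% of all regions in genes, and all 28 were lower in pOC. In mOC against pOC there were 14 (0.872% beside 0.739%), all higher in mOC, and in mOC against BMM 0 (beside 0.397%). Zfp119b, a clustered gene, had 93.6% in BMM (88.8 to 96.8, 172 reads), 50.3% in pOC (42.1 to 58.5, 153 reads) and 90.8% in mOC (85.1 to 94.9, 153 reads) over 25 cytosines on chromosome 17 (55956001 to 55956200). The middle of this region lay 132.5 bp from the 5′ end of the gene span, though outside the start-site windows used above. Its adjusted p was 3.53e-16 for pOC against BMM and 5.02e-12 for mOC against pOC by the exact test. With counts divided by the number of CG sites, the unadjusted p of that test was 0.0261 and 0.0686. Zfp14 had 71.3% in BMM (61.4 to 79.9, 101 reads), 33.3% in pOC (23.7 to 44.1, 90 reads) and 73.6% in mOC (64.1 to 81.7, 106 reads), which is a dip and return as in Zfp119b. A level in mOC is known here only where the region was also listed in mOC against pOC, 20 points or more from pOC.

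In clustered genes, Zfp955a had 38 cytosines on chromosome 17 (33241401 to 33242400), with 63.2% in pOC (56.4 to 69.6, 220 reads) and 94.8% in BMM (91.1 to 97.3, 232 reads). Zfp30 had 32, with 58.4% in pOC (50.8 to 65.8, 178 reads) and 91.7% in BMM (86.3 to 95.5, 157 reads). Zfp934 had 30 and was low in both stages, with 27.2% in pOC (21.1 to 34.0, 195 reads) and 51.8% in BMM (45.5 to 58.0, 257 reads). Single genes showed the same direction, as in Zfp451, a SUMO ligase, with 97.5% in BMM (92.8 to 99.5, 119 reads), 67.7% in pOC (59.0 to 75.5, 133 reads) and 94.3% in mOC (88.5 to 97.7, 122 reads).

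**Figure D3:**
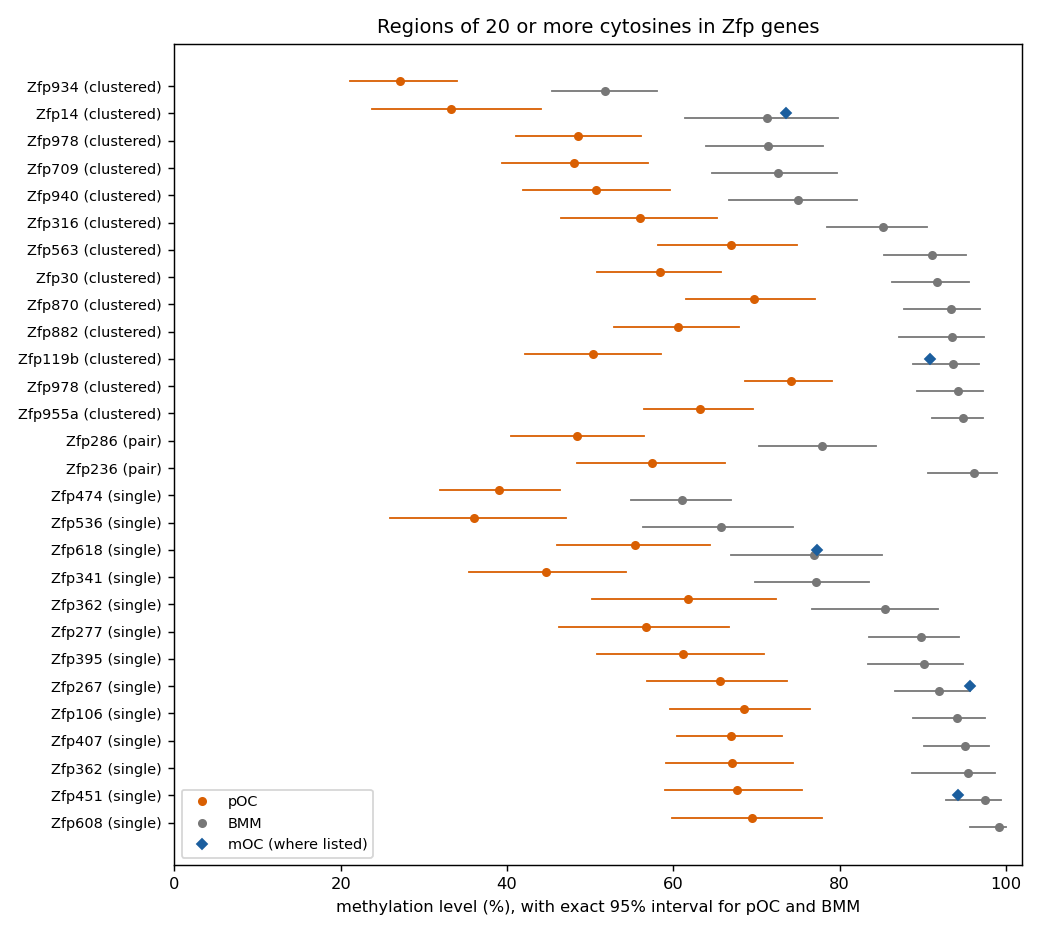
Methylation level (x axis, %) of the 28 regions of 20 or more cytosines in Zfp genes in pOC against BMM, each row 1 region with its gene and class, with exact 95% intervals for pOC and BMM and a diamond for mOC where the same region was also listed in mOC against pOC. Every pOC point lies left of its BMM point, and the 5 diamonds lie at 73.6% to 95.7%, near the BMM points. A diamond needs a difference of 20 points or more from pOC, so a region that stayed at its pOC level in mOC could show none.

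The place of listed regions within the gene differed between comparisons, as a description with no test. When the span was cut into 5 equal parts, the part at the 3′ end held 27.3% of 622 pOC against BMM regions in clustered Zfp genes with a known strand, 22.1% of 730 in single ones and 20.6% of those in other genes. In mOC against pOC it held 22.8% in clustered genes and 20.3% in other genes, and in mOC against BMM 12.3% in clustered genes and 19.0% in other genes. Single Zfp genes had 21.0% in mOC against pOC and 17.6% in mOC against BMM. Clustered genes were thus above other genes in 2 comparisons and below them in mOC against BMM. Where exons lie was not analysed here.

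The genes with most regions were long and single, except Zfp978 in the chromosome 4 cluster. Zfp407 had 113 regions lower and 1 higher in pOC than in BMM, 64 higher and 4 lower in mOC than in pOC, and, against BMM, 2 higher and 12 lower in mOC. Its median level in the pOC against BMM regions was 61.1% in pOC and 92.1% in BMM. Zfp148 was alike, with 36 lower and 0 higher and medians of 60.8% in pOC and 91.8% in BMM.

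Zfp385b, Zfp536 and Zfp978 were less methylated from the start. The medians of Zfp385b were 27.5% in pOC and 52.2% in BMM, over 6 higher and 42 lower regions. Those of Zfp978 were 36.5% in pOC and 62.5% in BMM, over 2 higher and 22 lower. The span of Zfp978 contains those of Zfp991 and Zfp988, so regions of these genes are counted in it too. In mOC against BMM, Zfp385b had 13 higher and 7 lower regions, with medians of 54.1% in mOC and 30.8% in BMM, and Zfp978 had 9 higher and 2 lower, with 46.9% in mOC and 29.6% in BMM. Zfp407 was on the other side in that comparison, with medians of 66.1% in mOC and 89.7% in BMM.

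**Figure D4:**
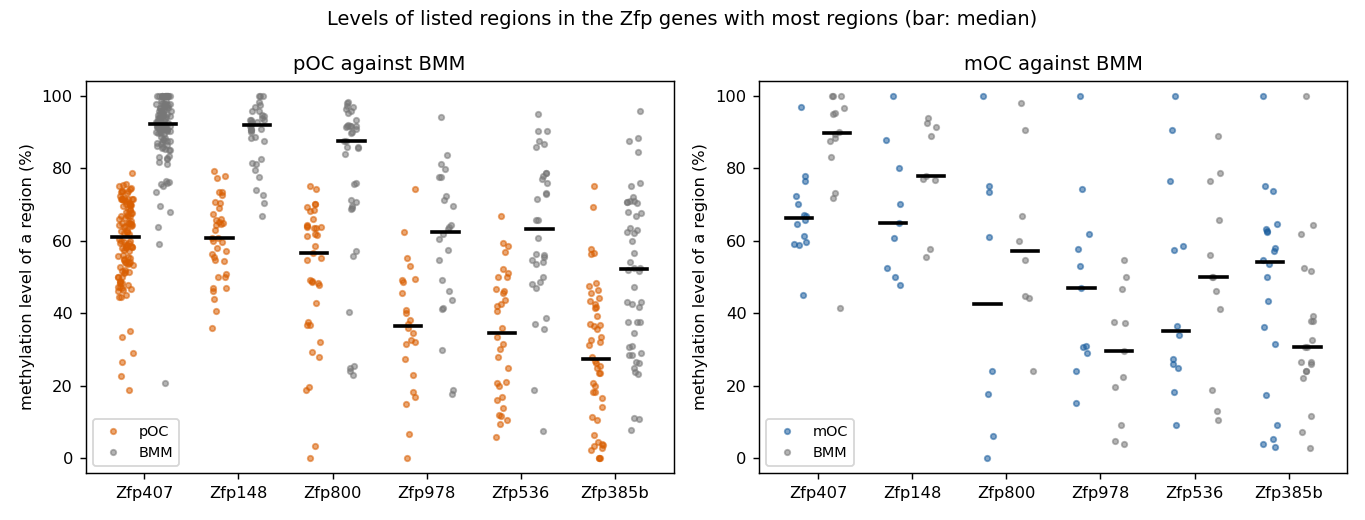
Methylation level (y axis, %) of each listed region in 6 Zfp genes with many regions, with pOC or mOC left of BMM and a bar at the median. The points of Zfp978 include regions of Zfp991 and Zfp988, which lie within its span. In pOC against BMM all 6 medians are lower in pOC, and in mOC against BMM the medians of Zfp978 (46.9% in mOC, 29.6% in BMM) and Zfp385b (54.1% in mOC, 30.8% in BMM) are higher in mOC while that of Zfp407 (66.1% in mOC, 89.7% in BMM) is lower.

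Zfp genes of known role were read from a list of 30, of which 29 are protein-coding in the RefSeq table. In pOC against BMM, 26 held a region, 18 only lower and 8 in both directions, with 271 regions lower in pOC and 12 higher. In mOC against pOC, 27 held one, 15 only higher and 12 both, with 226 higher and 21 lower. In mOC against BMM, 23 held one, 12 only lower, 3 only higher and 8 both, with 25 higher and 50 lower. The prevailing directions were those of all listed regions in genes, while role genes held a region more often (89.7%, 93.1% and 79.3% of them) than all genes did. With a median of 33708 bp they are also longer than Zfp genes as a whole, whose median is 17984 bp.

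Of the imprint-maintaining factors, Zfp445 held 7 regions, all lower in pOC, with 16.0% in pOC (4.54 to 36.1, 25 reads) and 63.3% in BMM (48.3 to 76.6, 49 reads) in the widest. Zfp57 had none in that comparison, and in mOC against BMM it had 32.1% in mOC (15.9 to 52.4, 28 reads) and 65.5% in BMM (45.7 to 82.1, 29 reads). The 5 KRAB repressors held 28 regions lower and 2 higher in pOC than in BMM. Zfp809, which silences murine leukaemia virus, had 60.0% in pOC (44.3 to 74.3, 45 reads) and 98.1% in BMM (90.1 to 100, 54 reads). Zfp445 and the KRAB repressors thus showed the direction of the whole table.

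The mRNA decay genes were nearly without listed regions. Zfp36, which encodes the inflammation brake tristetraprolin, and Zfp36l2 had none in any comparison, and both spans are short. Zfp36l1 held 2 regions, and the wider had 64.2% in pOC (49.8 to 76.9, 53 reads) and 89.5% in BMM (78.5 to 96.0, 57 reads), with 89.2% in mOC (80.4 to 94.9, 83 reads). Among pluripotency and chromatin factors 85 regions were lower and 1 higher in pOC than in BMM. Zfp42, the pluripotency marker Rex1, was low in both, with 8.62% in pOC (2.86 to 19.0, 58 reads) and 34.5% in BMM (17.9 to 54.3, 29 reads). Zfp217, a partner of a histone demethylase complex, had 92.1% in BMM (78.6 to 98.3, 38 reads), 37.5% in pOC (18.8 to 59.4, 24 reads) and 94.4% in mOC (72.7 to 99.9, 18 reads).

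Skeletal and mesenchymal genes held 29 regions lower and 3 higher in pOC than in BMM. Zfp423, which commits cells to the fat lineage, had 5.00% in pOC (0.127 to 24.9, 20 reads) and 43.8% in BMM (19.8 to 70.1, 16 reads), and elsewhere 0% in mOC (0 to 14.2, 24 reads) and 29.6% in BMM (13.8 to 50.2, 27 reads). Blood and immune genes held 16 regions, all lower in pOC. Among them Zfp91, a ubiquitin ligase of the noncanonical NF-κB pathway, had 88.9% in BMM (65.3 to 98.6, 18 reads), 50.0% in pOC (24.7 to 75.3, 16 reads) and 95% in mOC (75.1 to 99.9, 20 reads). Depth was low at both genes and the intervals are wide. General activators held 51 regions, all lower in pOC, and the neural genes 53 lower and 6 higher.

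**Figure D5:**
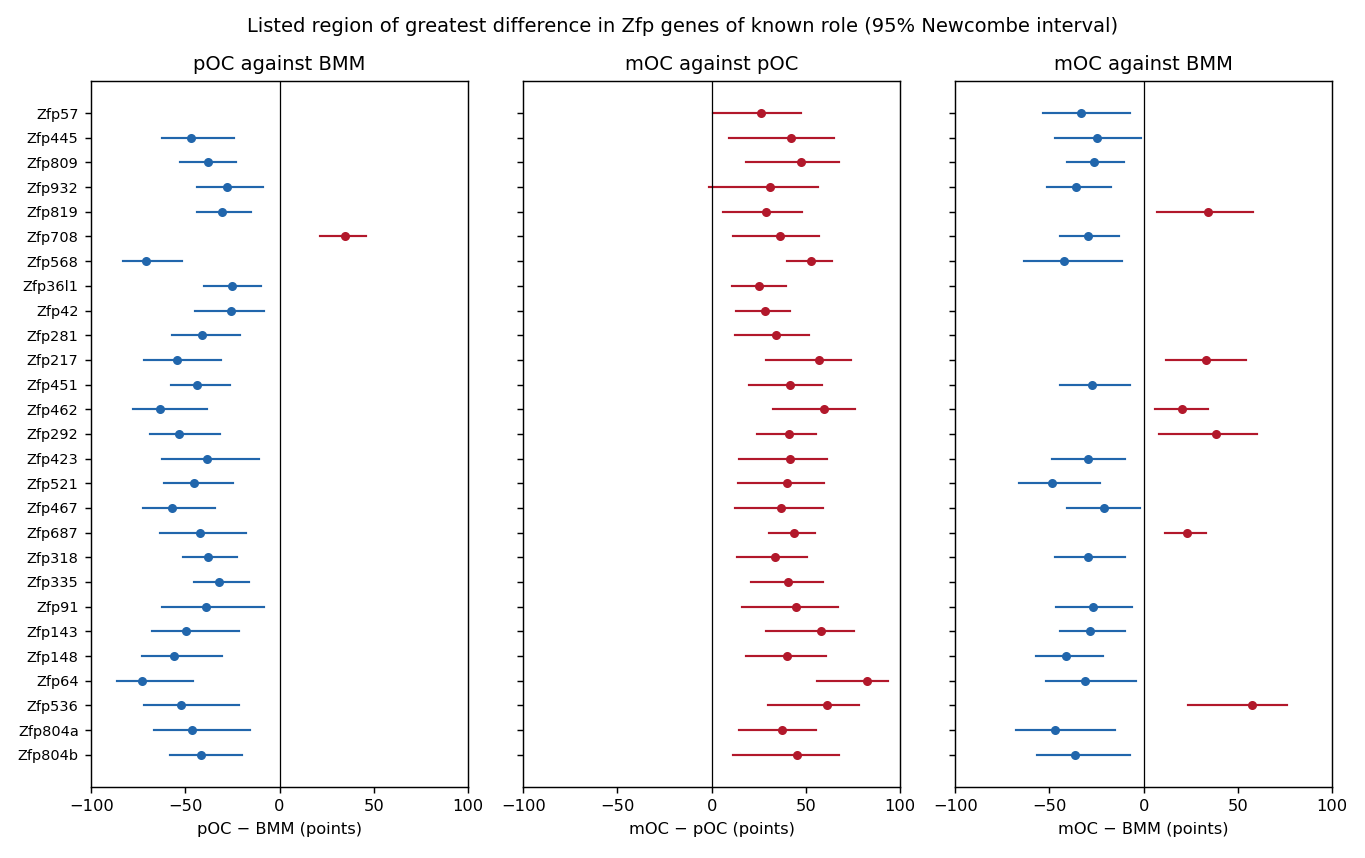
Difference in methylation level (x axis, percentage points, later minus earlier stage) at the listed region of greatest difference in each Zfp gene of known role, with Newcombe 95% intervals, where a gap means no listed region. In pOC against BMM all but Zfp708 lie below 0, in mOC against pOC all lie above 0, and in mOC against BMM 6 genes lie above 0.

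By Fisher's exact test with Benjamini-Hochberg adjustment over each table, 1787 of 1934 Zfp regions (92.4%) were under 0.05 in pOC against BMM. This held for 1125 of 1606 (70.0%) in mOC against pOC and 421 of 441 (95.5%) in mOC against BMM. For regions of other autosomal genes the shares were 92.3%, 67.8% and 94.2%, and for all regions 91.3%, 64.8% and 93.8%. The authors listed regions for their difference, and a read covering several cytosines counts several times, so these p-values are too small. With reads counted once per strand, 19.2%, 13.1% and 12.02% of Zfp regions were under an unadjusted 0.05 (beside 17.5%, 12.1% and 9.89% of all regions), and 0 after adjustment.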

How the data were processed

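Per the file headers, the authors' 3 deposited tables list CG regions, each table setting a pair of libraries side by side, with deposited counts of methylated and of all reads summed over a region's cytosines, the level as a fraction, and a p-value. Table headings give hours and were matched to the stages by them. Per the submitters' processing notes, FastQC, HISAT2 and StringTie were named and the build was GRCm38. A bisulfite aligner and a region caller were not given in the sources used here. Regions were made of 200 bp bins and had at least 4 cytosines, 16 reads in both libraries and a difference of 20 points. The deposited p-value reached 0.0917 in mOC against pOC and stayed under 0.05 in the others. A library had identical counts wherever it was shared between tables (82392, 17128 and 17210 regions).

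Levels were methylated over all reads, with Clopper-Pearson 95% intervals for levels and shares and Newcombe intervals for differences, which cover counting error only. A two-sided Fisher's exact test was run on every region of a table with Benjamini-Hochberg adjustment, in Python 3.11.15 (numpy 2.4.6, pandas 2.3.3, scipy 1.17.1, numba 0.67.0), after being tested on simulated data. The minimum of 10 reads removed no region. Gene spans, and strands for 325 of 388 Zfp genes, came from RefSeq tables of GRCm38.p6. Named genes were, per comparison and direction, the 6 with the largest difference at 30 or more reads, the 5 with most regions, those with a region of 20 or more cytosines, and the role list. Members and lists were chosen with earlier results of these data known. Alternatives were other read, p-value and size thresholds, gene spans, a depth ceiling, weighting by gene and other cluster definitions. A further one was counts divided by the number of CG sites, as if each read covered them all.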

Additional observations from a re-analysis of the deposited data

How the results depend on the processing

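No paired analysis was possible because each stage had 1 library. The share of Zfp regions higher in pOC than in BMM was 0.758% at a deposited p of at most 0.001. The share higher in mOC than in pOC was 94.2% with at least 30 reads, 99.5% at a deposited p of at most 0.001, 95.2% at differences of at least 30 points and 94.1% with each gene counted once. The share higher in mOC than in BMM was 25% (of 8 regions) at a deposited p of at most 0.001 and 40.9% at 30 points or more. The clustered minus single difference in those shares ran from -1.32 to 0.833 points in pOC against BMM, with its sign kept in 9 of 12 alternatives, and from 0 to 3.45 in mOC against pOC, where 0 came at a deposited p of at most 0.001. In mOC against BMM it ran from -1.18 at 30 points or more to 33.3 at a deposited p of at most 0.001. Of the named regions, 67 of 67 passed the adjusted exact test in pOC against BMM. In mOC against pOC 53 of 55 did, and in mOC against BMM 36 of 37. Of all regions 91.3%, 64.8% and 93.8% passed, and many named regions were picked for a large difference or many cytosines. With counts divided by the number of CG sites 0 named regions passed in each comparison, and 30, 20 and 11 were under an unadjusted 0.05. Of all regions 17.5%, 12.1% and 9.89% were. The cause of these shifts was not tested. About 6 reads per cytosine limit what single regions can show, and regions below the authors' thresholds were not analysed here.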

Other observations

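Zfp genes on the X chromosome and related families mostly took the same direction. The 9 X-linked Zfp genes held 8 regions, all lower in pOC than in BMM, and 6 higher and 1 lower in mOC than in pOC. Of regions in other X-linked genes, 9.09% were higher in pOC than in BMM and 83.6% higher in mOC than in pOC. The 1 X-linked Zfp region of mOC against BMM, in Zfp280c, was higher in mOC, as were 41.7% in other X-linked genes. In pOC against BMM, Zfp280c had 45.8% in pOC (24 reads) and 100% in BMM (38 reads). The 27 Zscan and Zkscan genes, which encode zinc fingers with a SCAN domain, held 79 regions lower and 3 higher in pOC than in BMM, 69 higher and 4 lower in mOC than in pOC, and, against BMM, 8 higher and 10 lower in mOC. Of the 388 autosomal Zfp genes, 181 (46.6%) held a region in all 3 comparisons and 27 (6.96%) in none, against 42.8% and 23.9% of all autosomal protein-coding genes, with Zfp36, Zfp36l2 and Zfp703 among the 27. These shares were not matched for gene length. Genes of up to 5 kb were 19 of the 388 Zfp genes and 4550 of 20277 other genes. In pOC against BMM 26.3% of these Zfp genes and 16.9% of these other genes held a region.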
